A study of Phyllostachys edulis with 34 samples.

Results

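Leaves of moso bamboo (Phyllostachys edulis) kept for 24 h in a nutrient solution with 25% PEG were compared with CK leaves of the same time point, over all genes of the deposited tables. The comparison rests on 6 of the 34 libraries of the series, 3 of PEG 24 h and 3 of CK 24 h. PEG (polyethylene glycol) lowers the water potential of the medium and served as the drought treatment. CK was taken to be the untreated leaves sampled alongside, as its name is not explained by the labels. All libraries came from young leaves of 30-day-old seedlings of this species, grown in dilute Hoagland solution under natural light, and the groups carry no genetic change. PEG and CK libraries at 3 h and libraries from 24 h of 200 mM NaCl, the salt treatment, were used beside them. The study's methods call the 3 libraries of a group biological replicates, without the number of seedlings in each. The p-values rest on the spread between libraries within a group, pooled over the 30 libraries of the fit. That fit also held NaCl 3 h libraries and libraries labelled SA (salicylic acid) and ABA (abscisic acid).

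Water shortage is sensed in plant leaves within minutes, closes stomata and sets off signalling through abscisic acid, and over hours the leaf shifts from growth towards protection of membranes and proteins and changes in its cell walls. Lignin, the phenolic polymer that stiffens and waterproofs secondary walls, is assembled from monolignols. These are made from phenylalanine by the general phenylpropanoid enzymes PAL, C4H and 4CL, then by HCT, C3H and CSE, by enzymes that include CCoAOMT and F5H, and by the reductases CCR and CAD. Each step is encoded by a gene family, and families of woody bamboos are large. The gene IDs of the files carry no names beyond the study's own list of lignin pathway genes, so the genes described by role are those of that list, and the identity of the tissue as leaf was not checked against marker genes.

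The PEG 24 h libraries held 32725305 to 36984133 counts and the CK 24 h libraries 33281887 to 34506333. Of 59091 genes, 39089 passed the filter on low counts and were tested. Spearman's rho between libraries, across genes, was 0.986 to 0.987 within each group and 0.890 to 0.894 between the groups, so that no library of either group stood apart from its own group. A gene was called at a Benjamini-Hochberg adjusted p under 0.05 (edgeR's quasi-likelihood test) and a change of at least 2-fold in counts scaled by TMM, a library scaling that takes most genes as unchanged. FPKM (fragment counts scaled to transcript length and library depth) is printed as deposited. Over 27332 genes the log2 ratio of mean FPKM lay below the TMM-scaled log2 fold change, with a median difference of -0.18. In bulk leaf RNA, fewer cells of a type and less RNA per cell cannot be told apart.

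After 24 h of PEG, 6370 of the 39089 genes were called, 16.3% of those tested. Of these 2626 (6.72%) were higher and 3744 (9.58%) lower than in CK 24 h. Scaling by library totals alone, without TMM factors, gave 2116 higher and 4737 lower, with a median log2 fold change over all genes of -0.22 in place of -0.05. Most genes moved little, as 72.3% of those tested lay within 2-fold. At an adjusted p under 0.05 with no demand on size, 7190 genes were higher and 7071 lower. In 2568 of the genes called higher every PEG library had a higher FPKM than every CK library. In 3680 of those called lower every PEG library had a lower one. The genes were called on these same libraries, so this separation is no separate support, and its share over all genes was not counted.

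The changes ran over a wide range. At least 4-fold changes were seen in 1126 higher and 1693 lower genes, at least 8-fold in 655 and 915, and at least 32-fold in 308 and 354. At the extreme, 91 genes had at least 10 counts in each PEG 24 h library and 0 in all CK 24 h libraries, and 100 genes had at least 10 counts in each CK 24 h library and 0 in all PEG 24 h libraries.

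The direction of the calls depended on how abundant a gene was. Among the 1512 genes with a mean of at least 100 CPM (read counts relative to the scaled library size) over the 6 libraries, 17% were called higher and 7.61% lower. The order was turned round among the 14069 genes between 1 and 10 CPM, with 7.72% higher and 13.1% lower, and among the 10418 genes under 1 CPM, with 3.97% higher and 8.65% lower. Between 10 and 100 CPM the shares were nearly equal, at 6.64% and 6.77% of 13090 genes. Of the 100 genes with the highest mean FPKM over the 6 libraries, 24 were called higher and 5 lower. With library totals alone the shares in the class of at least 100 CPM were 12.6% higher and 9.72% lower, and lower calls outnumbered higher ones in the other 3 classes.

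**Figure D1:**
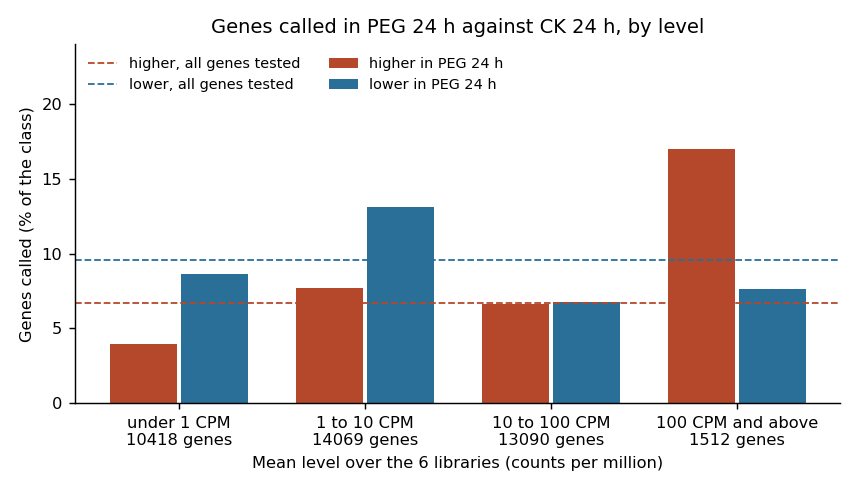
Share of genes called higher or lower in PEG 24 h against CK 24 h (y axis, percent of the genes of a class) in 4 classes of mean CPM over the 6 libraries (x axis); dashed lines give the shares over all genes tested, 6.72% and 9.58%. The class of at least 100 CPM is the only one of the 4 in which higher calls, at 17%, clearly outnumber lower calls, at 7.61%.

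The called genes took a much larger part of the sequenced RNA after PEG in one direction and a much smaller part in the other. The genes called higher held 19.1%, 19.1% and 19.2% of all counts in the PEG 24 h libraries, against 7.10%, 6.97% and 6.97% in the CK 24 h libraries. The genes called lower held 3.04%, 3.00% and 2.98% in PEG 24 h, against 11.3%, 11.4% and 11.2% in CK 24 h. These shares describe the lists that the same libraries chose and carry no test. The lignin pathway genes as a whole kept their share, with 0.542%, 0.517% and 0.527% of the counts in PEG 24 h and 0.530%, 0.549% and 0.518% in CK 24 h, so that the groups overlapped.

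The largest changes among genes of at least 10 CPM were in IDs to which no annotation used here gives a name. PH02Gene07648 had 726, 735 and 736 FPKM in PEG 24 h, against 0.149, 0 and 0 in CK 24 h, from 89225 and 6 counts in all, with a log2 fold change of 13.90 (SE 0.36, adjusted p = 1.39e-19). The 6 counts of CK 24 h all lay in replicate 1, and without that library the fitted value was 17.96, so the size of the change is not fixed by these data. It ranked 80th by mean FPKM among all genes of the treated leaves and was close to undetected in the controls. In NaCl 24 h PH02Gene07648 had 549, 504 and 533 FPKM, and PEG over NaCl was not called (0.55 (SE 0.17, adjusted p = 0.0122)). At 3 h it was already higher under PEG, with 4.105, 5.03 and 3.81 FPKM in PEG 3 h, against 0.509, 0.781 and 0.595 in CK 3 h. The gene Phyllostachys_edulis_newGene_21681 was at 0 counts in all CK 24 h libraries and had 4.25, 42.3 and 138 FPKM in PEG 24 h. Its fitted log2 fold change was 15.71 (SE 4.21, adjusted p = 0.00435). With CK set to 3 counts per library it was at least 2323-fold higher on average and 287-fold in the lowest PEG library. These bounds cover counting error only. At 3 h it was detected in both groups, with 69.9, 1693 and 871 FPKM in PEG 3 h, against 7.35, 2.45 and 5.98 in CK 3 h. Its treated libraries differed from each other by a wide margin, and in NaCl 24 h it ranged from 0 to 419 FPKM, so its level was not steady within a treatment.

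Of the falls, PH02Gene45932 had 0.238, 0.1698 and 0.267 FPKM in PEG 24 h, against 21.2, 19.2 and 20.9 in CK 24 h (log2 fold change -6.31 (SE 0.31, adjusted p = 2.46e-15)). It was low under PEG at 3 h as well, with 2.35, 2.999 and 1.66 FPKM in PEG 3 h, against 23.5, 24.5 and 22.2 in CK 3 h. In NaCl 24 h it was lower still, at 0.014, 0.162 and 0 FPKM. PH02Gene45600 had 0.3502, 0.184 and 0 FPKM in PEG 24 h, against 39.03, 47.2 and 37.8 in CK 24 h (log2 fold change -7.41 (SE 0.77, adjusted p = 9.28e-09)), and the fold change was -8.13 without PEG 24 h replicate 1 and -6.82 without replicate 3. Here the control had moved: CK 3 h stood at 0.971, 1.096 and 0.492 FPKM, and the log2 fold change of CK 24 h against CK 3 h was 5.58 (SE 0.66, adjusted p = 1.86e-07). In PEG leaves the gene was under 1 FPKM in each library at both times. In NaCl 24 h it had 4.45, 4.14 and 4.95 FPKM, between PEG 24 h and CK 24 h.

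The lignin pathway list holds 159 genes in 11 families, of which 128 passed the filter. Of these 12 were called higher (9.38%) and 15 lower (11.7%), 27 or 21.1% in all, beside 6.72%, 9.58% and 16.3% of all genes tested. The median log2 fold change was -0.19 over the 128 genes and -0.05 over all genes. With library totals alone 11 were higher and 21 lower, and by a 2-fold ratio of mean FPKM 9 were higher and 20 lower. Higher and lower members stood side by side in most families. In 25 of the 27 called genes the PEG and CK libraries did not overlap in FPKM. Nearly all calls shared this trait, 2568 of 2626 higher and 3680 of 3744 lower over all genes, as they were made on these same libraries. Only 9 of the 27, 4 higher and 5 lower, had a mean of at least 10 FPKM in either group.

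**Figure D2:**
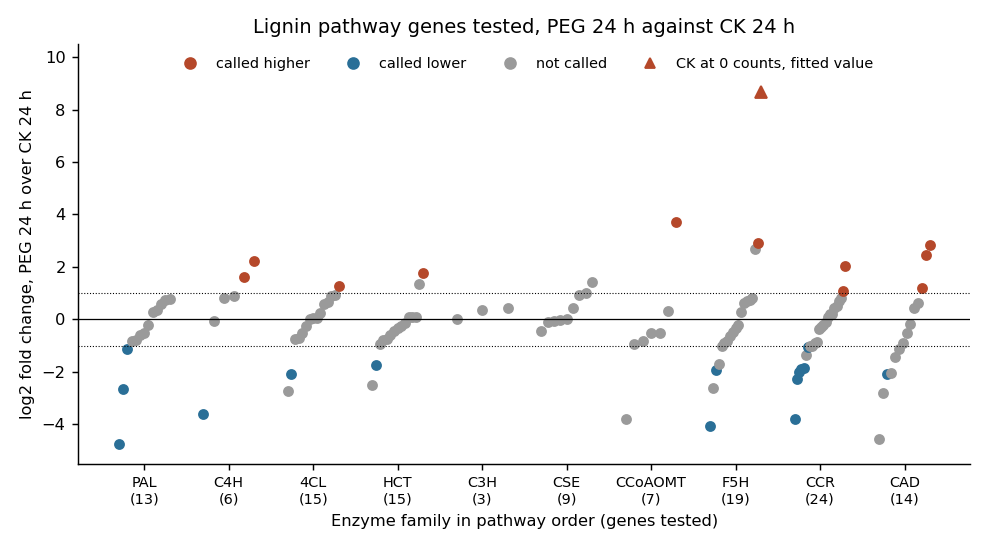
Log2 fold change of PEG 24 h over CK 24 h (y axis, TMM-scaled counts) of 125 lignin pathway genes in 10 enzyme families, in pathway order (x axis, genes tested in brackets); each point is a gene, coloured by its call, and dotted lines mark 2-fold. The 12 genes called higher and 15 called lower lie in 8 of these 10 families, and most genes lie within 2-fold.

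PAL, which deaminates phenylalanine and opens the pathway, had 3 of 13 tested genes called lower and 0 called higher. The member with the highest mean over both groups, PH02Gene27016, had 69.5, 58.5 and 65.9 FPKM in PEG 24 h, against 120.5, 134 and 124 in CK 24 h. The groups did not overlap, and its log2 fold change of -0.79 (SE 0.10, adjusted p = 4.31e-07) was short of 2-fold. In PEG 24 h alone PH02Gene08452, named after its values were seen, was slightly higher and moved the other way, with 69.2, 68.4 and 68.5 FPKM in PEG 24 h, against 47.1, 47.7 and 44.6 in CK 24 h (0.74 (SE 0.17, adjusted p = 0.000899)). The called members were all minor. PH02Gene40449 had 0, 0.0646 and 0 FPKM in PEG 24 h, against 0.815, 0.777 and 0.8197 in CK 24 h, 8 and 241 counts in all, with a log2 fold change of -4.73 (SE 0.57, adjusted p = 2.10e-07). All 8 PEG counts lay in replicate 2, and the fitted value was -9.25 without it and -4.12 without replicate 1. PH02Gene27014 had 0.0464, 0.108 and 0.0663 FPKM in PEG 24 h, against 0.614, 0.467 and 0.624 in CK 24 h (-2.66). PH02Gene27012 had 0.605, 0.617 and 0.625 FPKM in PEG 24 h, against 1.51, 1.51 and 1.55 in CK 24 h (-1.12 (SE 0.39, adjusted p = 0.0263)), and lost its call when any 1 of the 6 libraries was left out (adjusted p = 0.0642 to 0.0828). Summed over the family, FPKM was 308 to 325 in PEG 24 h and 352 to 377 in CK 24 h, a ratio of the means of 0.873. This and the other family sums carry the offset of FPKM from TMM scaling, a median log2 difference of -0.18. A ratio this near 1 is thus not read as a fall of the family.

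C4H, the cytochrome P450 that hydroxylates cinnamate, had 2 of 6 genes called higher and 1 called lower. Its main gene PH02Gene03697, with 84.3% of the family's FPKM in PEG 24 h and 86.5% in CK 24 h, stood at 176, 160.3 and 159.8 FPKM in PEG 24 h, against 106, 111 and 104 in CK 24 h. Every PEG library was above every CK library, by less than 2-fold (0.81 (SE 0.10, adjusted p = 9.87e-08)). PH02Gene44264 was called higher, with 7.31, 7.44 and 5.504 FPKM in PEG 24 h, against 1.27, 1.92 and 1.63 in CK 24 h (2.24 (SE 0.23, adjusted p = 6.40e-09)). PH02Gene04447 had 7.003, 7.61 and 7.73 FPKM in PEG 24 h, against 3.43, 2.65 and 2.17 in CK 24 h (1.61 (SE 0.26, adjusted p = 1.06e-05)). Both of these secondary members thus rose well above their controls, whereas PH02Gene38832, the least abundant of the named members, fell to 0.0923, 0.0583 and 0 FPKM in PEG 24 h, against 0.969, 0.801 and 0.458 in CK 24 h (-3.62 (SE 0.62, adjusted p = 3.79e-05), -4.28 without PEG 24 h replicate 1 and -3.04 without replicate 3). The family sum was 189 to 208 FPKM in PEG 24 h and 120.3 to 128 in CK 24 h, the largest ratio of the 11 families at 1.59.

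4CL, which couples hydroxycinnamic acids to coenzyme A, had 1 of 15 tested genes called in each direction. PH02Gene03593 had 56.4, 55.8 and 52.7 FPKM in PEG 24 h, against 26.04, 26.4 and 25.3 in CK 24 h (1.26 (SE 0.08, adjusted p = 3.04e-13)). PH02Gene42739 had 2.72, 1.97 and 2.39 FPKM in PEG 24 h, against 11.3, 11.1 and 11.2 in CK 24 h (-2.07 (SE 0.18, adjusted p = 2.09e-10)). The PEG libraries of PH02Gene42739 were near their level at 3 h, 2.42, 2.05 and 1.94 FPKM, while CK had 3.46, 2.92 and 3.25 FPKM at 3 h and was higher at 24 h (log2 fold change of CK 24 h against CK 3 h 1.86 (SE 0.17, adjusted p = 2.78e-09)). The most abundant member PH02Gene26838 had 97.7, 97.9 and 94.9 FPKM in PEG 24 h, against 129, 131 and 132 in CK 24 h (-0.25 (SE 0.07, adjusted p = 0.00582)). The sums over the family overlapped, at 344 to 358 FPKM in PEG 24 h and 349 to 367 in CK 24 h.

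HCT transfers the coumaroyl group to shikimate, C3H hydroxylates that ester, and CSE, as known from Arabidopsis, releases caffeate from it. Among the 15 HCT genes tested 1 was called in each direction. PH02Gene25625 had 1.92, 1.79 and 2.496 FPKM in PEG 24 h, against 6.16, 8.95 and 8.23 in CK 24 h (-1.73 (SE 0.21, adjusted p = 1.01e-07)). PH02Gene48286 was near the detection limit in CK, with 0.852, 1.21 and 1.19 FPKM in PEG 24 h, against 0.148, 0.364 and 0.522 in CK 24 h (1.78 (SE 0.49, adjusted p = 0.00503)). The leading HCT gene PH02Gene47111 had 105, 99.6 and 102 FPKM in PEG 24 h, against 134, 147 and 136 in CK 24 h, lower in each PEG library but well short of 2-fold (-0.26 (SE 0.10, adjusted p = 0.0445)). The family sum of HCT was the lowest relative to CK among the 11 families, with 167 to 175 FPKM in PEG 24 h, 249.9 to 273 in CK 24 h and a ratio of 0.666. Like the other sums, it carries the offset between the scales.

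No C3H or CSE gene was called. The main C3H gene PH02Gene03849, which carried 93.1% of its family's FPKM in PEG 24 h and 92.0% in CK 24 h, had 253, 238 and 247 FPKM in PEG 24 h, against 224, 218 and 217 in CK 24 h (0.34 (SE 0.08, adjusted p = 0.00133)). The main CSE gene PH02Gene34362 had 108, 107 and 106 FPKM in PEG 24 h, against 125, 124 and 115 in CK 24 h, and its log2 fold change on scaled counts was 0.00 (SE 0.08, adjusted p = 0.985). PEG was lower than CK in FPKM and level with it in TMM-scaled counts, which is the offset between the scales given above.

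CCoAOMT methylates caffeoyl-CoA to feruloyl-CoA, and F5H hydroxylates coniferaldehyde on the way to syringyl units. In CCoAOMT, 1 of 7 tested genes was called, PH02Gene31245. It had 8.05, 7.25 and 10.6 FPKM in PEG 24 h, against 0.643, 0.625 and 0.932 in CK 24 h (3.70 (SE 0.32, adjusted p = 2.25e-10)), the largest rise in the pathway among genes with counts in every library of both groups. PH02Gene12695, the highest of the family as listed in CK 24 h and over both groups but not in PEG 24 h, went the other way by less than 2-fold, with 32.7, 30.4 and 28.7 FPKM in PEG 24 h, against 47.6, 52.7 and 46.8 in CK 24 h (-0.50 (SE 0.11, adjusted p = 0.000413)). The study's text names as CCoAOMT another gene, which its list places elsewhere. That gene was more abundant in both groups and was not called, so the ranking holds for the list only.

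F5H had 2 of 19 tested genes called higher and 2 lower, and 14 of its 33 listed genes did not pass the filter. PH02Gene21400 showed the clearest rise, with 53.8, 48.6 and 51.7 FPKM in PEG 24 h, against 7.51, 8.45 and 7.35 in CK 24 h (2.90 (SE 0.18, adjusted p = 5.98e-13)). PH02Gene38755 had 142 counts over the PEG 24 h libraries and 0 in CK 24 h, 0.5199, 0.492 and 0.7704 FPKM in PEG 24 h against 0 in each CK 24 h library, at least 17.5-fold higher with CK set to 3 counts per library. The falls were of minor members. PH02Gene15790 had 0.101, 0.202 and 0 FPKM in PEG 24 h, against 1.92, 2.53 and 1.802 in CK 24 h (-4.07 (SE 0.59, adjusted p = 2.84e-06), -5.01 without PEG 24 h replicate 2 and -3.48 without replicate 3). PH02Gene34078 had 1.02, 0.656 and 0.778 FPKM in PEG 24 h, against 3.496, 2.79 and 4.39 in CK 24 h (-1.93 (SE 0.17, adjusted p = 3.45e-10)). The most abundant F5H gene PH02Gene18881 stood at 173, 167 and 165 FPKM in PEG 24 h, against 117, 115 and 111 in CK 24 h, above CK in each library and under 2-fold (0.74 (SE 0.06, adjusted p = 2.19e-10)). The family sum was 432 to 456 FPKM in PEG 24 h and 301 to 314 in CK 24 h, a ratio of 1.46.

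CCR, which reduces the CoA esters to aldehydes and commits them to lignin, had 2 genes called higher and 6 called lower. These were the most calls of any family, but CCR also had the most genes tested, 24. The share called was 33.3%, beside 50% in C4H, 28.6% in CAD and 16.3% of all genes tested. The largest rise was that of PH02Gene03651, with 38.7, 44.6 and 45.6 FPKM in PEG 24 h, against 11.4, 10.8 and 13.5 in CK 24 h (2.03 (SE 0.17, adjusted p = 2.47e-10)). The leading gene of the controls, PH02Gene06795, fell to 34.6, 28.3 and 28.3 FPKM in PEG 24 h, against 71.9, 75.99 and 66.03 in CK 24 h (-1.05 (SE 0.12, adjusted p = 3.79e-08)). Its groups were far apart, but the change sat at the 2-fold limit and missed it in 4 of the 6 fits with 1 library left out, without CK 24 h replicate 1 or 2 or PEG 24 h replicate 2 or 3 (-0.998 to -0.949). PH02Gene04629 had 6.72, 5.87 and 5.49 FPKM in PEG 24 h, against 28.03, 26.95 and 28.2 in CK 24 h (-2.02 (SE 0.10, adjusted p = 6.47e-15)). PH02Gene12617 had 0.202, 0.185 and 0 FPKM in PEG 24 h, against 2.25, 1.87 and 2.27 in CK 24 h (-3.79 (SE 1.03, adjusted p = 0.0044), -3.18 without PEG 24 h replicate 3). Relative to its control this minor gene had the largest fall among the CCR genes called.

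PH02Gene28140 and PH02Gene28141, with consecutive IDs and both listed as CCR, went in opposite directions. PH02Gene28140 had 7.29, 7.73 and 7.05 FPKM in PEG 24 h, against 4.09, 4.17 and 3.45 in CK 24 h (1.09 (SE 0.24, adjusted p = 0.00074)). PH02Gene28141 had 0.747, 0.95999 and 0.833 FPKM in PEG 24 h, against 5.54, 4.801 and 3.71 in CK 24 h (-2.28 (SE 0.30, adjusted p = 6.56e-07)). The rise of PH02Gene28140 was under 2-fold with library totals alone and on FPKM (0.91), while the fall of PH02Gene28141 was called on each scale. The rule by which reads with several matches were counted is not given, so levels of close copies are uncertain. Over all 22737 pairs of tested genes with consecutive IDs, both were called higher in 208 pairs, both lower in 364 and opposite in 220.

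**Figure D3:**
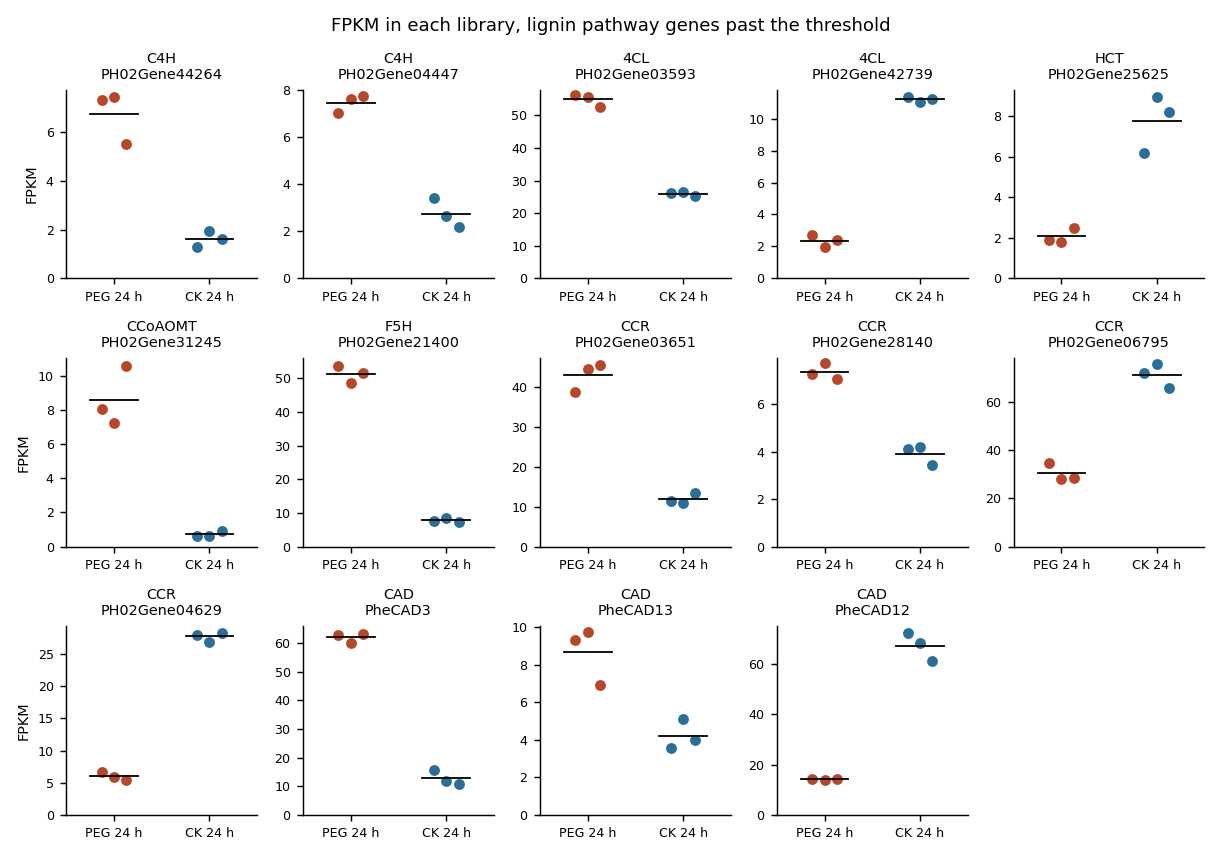
FPKM (y axis, linear from 0, one scale per gene) in each of the 3 PEG 24 h and 3 CK 24 h libraries (points; bars are means) for the 14 named lignin pathway genes past the threshold with a mean of at least 5 FPKM in either group. In each of the 14 panels, of genes called on these same libraries, PEG and CK do not overlap. PheCAD3, for example, has 60.1 to 63.3 FPKM in PEG 24 h and 10.8 to 15.8 in CK 24 h.

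CAD reduces the aldehydes to monolignols, the last step before export to the wall, and was the family the study was about. All 14 PheCAD genes were tested, of which 3 were called higher and 1 lower. PheCAD3 (PH02Gene38470) had 62.7, 60.1 and 63.3 FPKM in PEG 24 h, against 15.8, 11.9 and 10.8 in CK 24 h (2.45 (SE 0.16, adjusted p = 7.18e-13)), and was the most abundant PheCAD gene of the treated leaves. PheCAD13 (PH02Gene48685) had 9.34, 9.76 and 6.92 FPKM in PEG 24 h, against 3.57, 5.13 and 3.97 in CK 24 h (1.21 (SE 0.19, adjusted p = 9.93e-06)), and missed 2-fold by limma on log2(FPKM + 1) (0.89). PheCAD5 (PH02Gene38471), the neighbour of PheCAD3 by ID, was called at low levels, with 1.58, 1.22 and 0.327 FPKM in PEG 24 h, against 0.388, 0.0564 and 0 in CK 24 h (2.85 (SE 0.72, adjusted p = 0.00259)). Its lowest PEG library lay below its highest CK library, and without that CK library, replicate 1, the log2 fold change was 4.79.

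PheCAD12 (PH02Gene49901) was the most abundant PheCAD gene of the CK leaves and the only one called lower. It had 14.1, 13.9 and 14.3 FPKM in PEG 24 h, against 72.2, 68.1 and 61.3 in CK 24 h (-2.07 (SE 0.13, adjusted p = 5.62e-13)). PheCAD12 made up 7.99% of the family's FPKM in PEG 24 h and 36.2% in CK 24 h. The family sum nevertheless differed little, with 173 to 179 FPKM in PEG 24 h and 171 to 195 in CK 24 h, so that the composition of the CAD transcripts changed more than their total.

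Of the remaining PheCAD genes, 4 were well expressed, and none of these 4 reached 2-fold in the TMM-scaled fit. PheCAD2 (PH02Gene39617) had 38.02, 37.5 and 41.1 FPKM in PEG 24 h, against 29.5, 30.4 and 25.9 in CK 24 h (0.62 (SE 0.11, adjusted p = 6.05e-05)). PheCAD1 (PH02Gene46268) had 21.6, 20.2 and 21.7 FPKM in PEG 24 h, against 18.1, 16.1 and 19.1 in CK 24 h (0.43 (SE 0.12, adjusted p = 0.00679)). Both lay above CK in every library. PheCAD8 (PH02Gene13789) had 19.98, 20.5 and 20.5 FPKM in PEG 24 h, against 34.3, 35.3 and 30.7 in CK 24 h (-0.54 (SE 0.09, adjusted p = 1.71e-05)). PheCAD14 (PH02Gene04778) had 7.47, 7.79 and 8.46 FPKM in PEG 24 h, against 16.7, 18.5 and 14.6 in CK 24 h (-0.89 (SE 0.25, adjusted p = 0.00532)). Both lay below CK in every library, and PheCAD14 was called lower with library totals alone (-1.07), passed 2-fold as a ratio of mean FPKM (-1.07) and was called by limma on log2(FPKM + 0.1) (-1.06, adjusted p = 3.13e-05).

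The other PheCAD genes were at low levels, and none of them passed the test. PheCAD4 (PH02Gene44682) had 2.55, 1.73 and 1.98 FPKM in PEG 24 h, against 2.12, 2.53 and 3.37 in CK 24 h, and the groups overlapped (-0.18 (SE 0.26, adjusted p = 0.653)). PheCAD11 (PH02Gene13791) had 0.928, 0.328 and 0.294 FPKM in PEG 24 h, against 1.79, 1.67 and 1.28 in CK 24 h (-1.43 (SE 0.69, adjusted p = 0.109)), so its call depended on the setting. It was called lower without PEG 24 h replicate 1 (-2.10), in a fit of the 6 PEG 24 h and CK 24 h libraries alone (-1.42) and by limma on log2(FPKM + 0.1) (-1.58, adjusted p = 0.00942), and passed 2-fold as a ratio of mean FPKM (-1.61). The remainder were at 0.252 FPKM or less in each of the 6 libraries. PheCAD7 (PH02Gene32740) had 12 counts over PEG 24 h and 29 over CK 24 h, and PheCAD9 (PH02Gene26598) had 6 and 28 (adjusted p = 0.584 and 0.25). PheCAD6 (PH02Gene48202) had 3 counts over PEG 24 h and 26 over CK 24 h, a ratio of PEG to CK of 0.127 with a 95% counting interval of 0.0245 to 0.413. PheCAD10 (PH02Gene13790) had 0 counts in PEG 24 h and 9 in CK 24 h, the 9 in 1 library, and no fold is given because the CK mean of 0.0814 CPM is under the 0.0827 CPM of 3 counts per library. Such intervals cover counting error only.

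The effect of PEG at 24 h was set against that at 3 h, which was measured in other libraries with their own control. At 3 h, 10120 genes were called, 25.9% of those tested (5192 higher and 4928 lower), more than at 24 h. With library totals alone the 3 h split was 3726 higher and 8334 lower. The ratio of mean FPKM lay further below the TMM-scaled value at 3 h than at 24 h, with a median difference of -0.39 over 27079 genes. Across the 39089 genes the log2 fold changes at 24 h and at 3 h had a Pearson's r of 0.22 and a Spearman's rho of 0.27, as a description over genes that share libraries and are not replicates. The difference of the effects (24 h minus 3 h, edgeR) was itself called in 8773 genes, 22.4% of those tested, 3743 with a higher and 5030 with a lower effect at 24 h. This split changed to 5047 and 4366 with library totals alone.

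The lists of the times overlapped in part, and a group of genes changed sides. For comparison, 13.3% of all genes tested were called higher and 12.6% lower at 3 h, and 6.72% and 9.58% at 24 h. Of the 2626 genes called higher at 24 h, 1176 were also higher at 3 h (44.8% of the 24 h list and 22.7% of the 3 h list), 111 were lower at 3 h and 1339 were not called at 3 h. Of the 3744 called lower at 24 h, 900 were also lower at 3 h (24.0% and 18.3% of the lists), 2101 were not called at 3 h, and 743 (19.8%) had been called higher at 3 h. Their median log2 fold change was -1.94 at 24 h and 2.03 at 3 h. They were higher than CK early in the treatment and lower than CK on the next day.

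Of the 128 lignin pathway genes tested, 33 were called higher (25.8%) and 8 lower (6.25%) at 3 h, where 13.3% and 12.6% of all genes were, beside 12 and 15 at 24 h. Of the 33, 6 were also higher at 24 h, 5 were lower and 22 were not called. The 5 that turned were 15.2% of the 33, close to the 14.3% of all genes called higher at 3 h. The difference between the times was called in 45 of the 128 (11 with a higher and 34 with a lower effect at 24 h), 35.2% beside 22.4% of all genes tested. By direction the shares over all genes were 9.58% with a higher and 12.9% with a lower effect at 24 h. The lignin counts at 3 h and for the difference were not repeated with library totals alone, a scale that turned the split over all genes. Across the 128 genes the Pearson's r of the effects at 24 h and 3 h was 0.22 and Spearman's rho 0.18. The 5 that changed sides were PAL PH02Gene40449 and PH02Gene27012, C4H PH02Gene38832, HCT PH02Gene25625 and F5H PH02Gene15790, all minor members of their families.

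**Figure D4:**
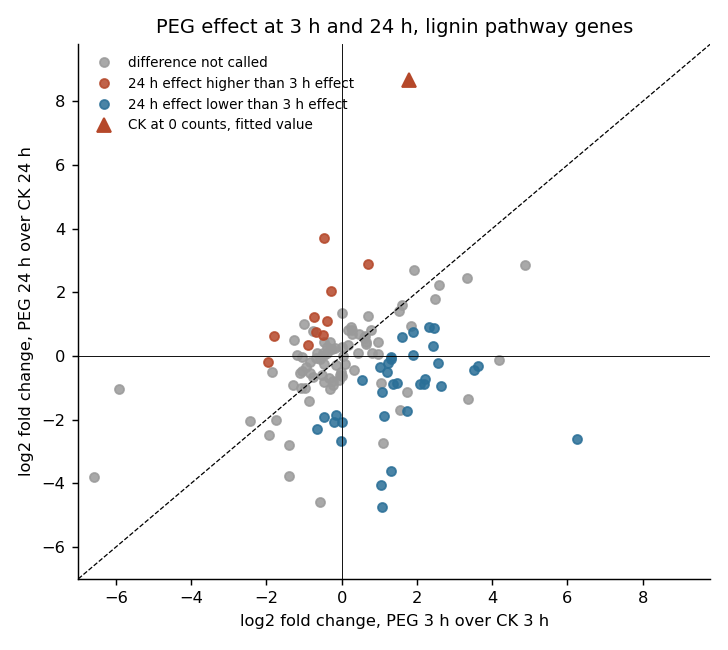
Log2 fold change of PEG over CK at 24 h (y axis) against that at 3 h (x axis) for the 128 lignin pathway genes tested, coloured by whether the difference between the times was called; the dashed line marks equal effects. On TMM-scaled counts more genes lie below the line with a called difference (34) than above it (11). Many of those below the line are higher than CK at 3 h and near or below CK at 24 h.

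The most abundant of these was HCT PH02Gene25625. It had 6.75, 10.96 and 7.53 FPKM in PEG 3 h, against 3.11, 3.38 and 3.43 in CK 3 h, a log2 fold change of 1.74 where 24 h gave -1.73 (difference -3.47 (SE 0.29, adjusted p = 1.24e-10)). In each time point the groups did not overlap. The leading F5H gene PH02Gene18881 kept its direction but lost size, with 282, 292 and 278 FPKM in PEG 3 h, against 99.7, 101 and 98.2 in CK 3 h (1.91 at 3 h, difference -1.17 (SE 0.09, adjusted p = 2.23e-11)). CCoAOMT PH02Gene12695 was called higher at 3 h, with 47.3, 48.2 and 53.2 FPKM in PEG 3 h, against 30.6, 29.3 and 24.6 in CK 3 h (1.21, difference -1.71 (SE 0.15, adjusted p = 4.62e-10)). More of the family's FPKM at 3 h lay in PH02Gene07558, named after its values were seen. It had 221, 166 and 189 FPKM in PEG 3 h, against 42.9, 36.9 and 40.8 in CK 3 h (2.65, difference -3.59 (SE 0.17, adjusted p = 8.04e-16)). At 24 h PH02Gene07558 was below CK by less than 2-fold (-0.94). The summed FPKM of the CCoAOMT family was 3.42 times that of CK at 3 h and 0.757 times at 24 h. These sums carry the median log2 offsets of FPKM from TMM scaling, -0.39 at 3 h and -0.18 at 24 h.

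In other genes the effect of PEG was higher at 24 h than at 3 h. CCoAOMT PH02Gene31245 had 0.1502, 0.356 and 0.4797 FPKM in PEG 3 h, against 0.5397, 0.7798 and 0.484 in CK 3 h, and rose at 24 h (difference 4.18 (SE 0.50, adjusted p = 1.15e-07)). F5H PH02Gene21400 had 5.79, 4.63 and 3.21 FPKM in PEG 3 h, against 3.45, 4.11 and 3.46 in CK 3 h (0.69 (SE 0.19, adjusted p = 0.00341), difference 2.21 (SE 0.26, adjusted p = 7.77e-08)). CCR PH02Gene03651 had 9.18, 7.78 and 6.84 FPKM in PEG 3 h, against 11.8, 11.3 and 15.2 in CK 3 h (difference 2.32 (SE 0.25, adjusted p = 1.23e-08)). None of these was called at 3 h, PH02Gene21400 because its rise there was under 2-fold. C3H PH02Gene03849 moved from below CK to above it, with 62.9, 71.9 and 62.4 FPKM in PEG 3 h, against 165, 161 and 161 in CK 3 h (-0.91), and a difference of 1.25 (SE 0.12, adjusted p = 1.02e-09).

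Among the PheCAD genes the difference between the times was called for PheCAD4, PheCAD12, PheCAD13 and PheCAD14. PheCAD12 had 37.3, 29.6 and 36.1 FPKM in PEG 3 h, against 46.8, 41.9 and 45.6 in CK 3 h, lower in FPKM in every PEG library but with a log2 fold change of 0.01 on TMM-scaled counts, and was called lower at 24 h and not at 3 h (difference -2.08 (SE 0.18, adjusted p = 2.94e-10)). PheCAD13 had 1.205, 1.71 and 1.903 FPKM in PEG 3 h, against 3.26, 4.28 and 3.002 in CK 3 h, below CK where it was above CK a day later (difference 1.95 (SE 0.28, adjusted p = 2.03e-06)). PheCAD4 had 0.549, 0.443 and 0.816 FPKM in PEG 3 h, against 3.17, 3.35 and 2.798 in CK 3 h, called lower at 3 h (-1.96) and not at 24 h (difference 1.79 (SE 0.38, adjusted p = 0.00046)). PheCAD14 had 4.39, 2.47 and 3.34 FPKM in PEG 3 h, against 1.93, 2.01 and 1.17 in CK 3 h (1.37, difference -2.26 (SE 0.37, adjusted p = 1.29e-05)). It was above CK at 3 h and below CK at 24 h, although its level was higher in both groups at 24 h. PheCAD1 turned by less than 2-fold, with 12.6, 8.38 and 11.9 FPKM in PEG 3 h, against 19.6, 20.4 and 19.8 in CK 3 h (-0.47 (SE 0.12, adjusted p = 0.00268)), and a difference of 0.90 (SE 0.18, adjusted p = 0.000152).

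PheCAD3 was higher under PEG at both times. It had 259, 214 and 253 FPKM in PEG 3 h, against 31.2, 31.6 and 31.9 in CK 3 h (3.33 (SE 0.16, adjusted p = 9.80e-16)), and the smaller effect at 24 h differed from it by -0.88 (SE 0.21, adjusted p = 0.00142), short of 2-fold. PheCAD5 had 9.01, 8.59 and 3.33 FPKM in PEG 3 h, against 0.431, 0.209 and 0.2697 in CK 3 h (4.88 (SE 0.54, adjusted p = 3.90e-08)), and its difference between the times did not pass the test (-2.04 (SE 1.08, adjusted p = 0.145)). The level of PheCAD3 was lower at 24 h than at 3 h in CK as well, by a log2 fold change of -1.24 (SE 0.15, adjusted p = 3.66e-07). PheCAD8 was below CK at both times, with 28.2, 23.2 and 25.8 FPKM in PEG 3 h, against 62.9, 57.6 and 62.8 in CK 3 h (-0.85, difference 0.31 (SE 0.12, adjusted p = 0.0474)).

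**Figure D5:**
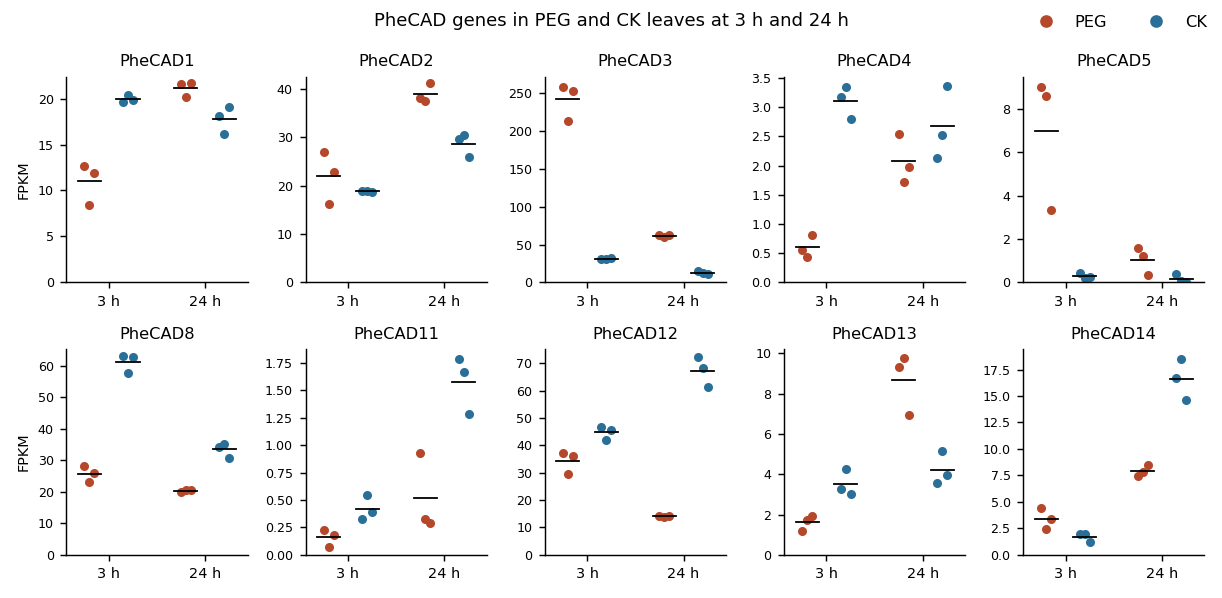
FPKM (y axis, linear from 0, one scale per gene) of the 10 PheCAD genes with a group mean of at least 1 FPKM, in the 3 PEG and 3 CK libraries at 3 h and at 24 h (x axis; points are libraries, bars are means). PheCAD12 is below CK in FPKM at both times, with 29.6 to 37.3 in PEG 3 h against 41.9 to 46.8 in CK 3 h and a wider gap at 24 h, PheCAD3 is above CK at both times, and PheCAD14 is at higher levels at 24 h in both groups.

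The CK leaves themselves differed between the times, which enters every difference between 24 h and 3 h. CK 24 h against CK 3 h gave 2940 called genes, 7.52% of those tested (4.86% higher and 2.67% lower). Among the 128 lignin pathway genes 25 were higher and 6 lower in CK 24 h, 24.2% in all, and among the 13 PAL genes 7 were higher and 0 lower. PAL PH02Gene27016, for example, had 120.5, 134 and 124 FPKM in CK 24 h, against 52.6, 52.7 and 47.4 in CK 3 h (1.36 (SE 0.10, adjusted p = 4.85e-11)). In PEG leaves the same gene had 35.2, 32.6 and 30.4 FPKM at 3 h and 69.5, 58.5 and 65.9 at 24 h, so that it was at a higher level at 24 h in both groups. Sampling time within the day is not stated for either time point.

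PEG was also set directly against NaCl at 24 h, the other treatment that lowers water potential, with PEG over NaCl as the fold change. Of the 39089 genes 8004 were called, 20.5% of those tested, with 3419 (8.75%) higher and 4585 (11.7%) lower in PEG. Of the 128 lignin pathway genes 13 were higher and 32 lower in PEG than in NaCl. The comparisons of PEG and of NaCl with CK share the CK libraries, so levels are given side by side. PheCAD3 stood at 62.7, 60.1 and 63.3 FPKM in PEG 24 h, against 611, 561 and 612 in NaCl 24 h and 15.8, 11.9 and 10.8 in CK 24 h. This log2 fold change of PEG over NaCl was -3.18 (SE 0.16, adjusted p = 3.84e-15). PheCAD5 had 1.58, 1.22 and 0.327 FPKM in PEG 24 h, against 26.2, 20.9 and 20.7 in NaCl 24 h (-4.32 (SE 0.47, adjusted p = 2.65e-08)). Both genes were thus much lower in PEG than in NaCl, and above CK in their means in each treatment.

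PheCAD12 was lower in PEG than in NaCl. Its 14.1, 13.9 and 14.3 FPKM in PEG 24 h stood against 90.8, 79.4 and 92.5 in NaCl 24 h (-2.55 (SE 0.13, adjusted p = 9.04e-15)), with CK 24 h in between in scaled counts as in FPKM. CCoAOMT PH02Gene31245 had 8.05, 7.25 and 10.6 FPKM in PEG 24 h, against 53.4, 48.01 and 53.96 in NaCl 24 h (-2.51 (SE 0.27, adjusted p = 1.72e-08)). F5H PH02Gene38755 had 0.5199, 0.492 and 0.7704 FPKM in PEG 24 h, against 9.26, 9.81 and 10.9 in NaCl 24 h (-3.99 (SE 0.49, adjusted p = 4.27e-07)). C4H PH02Gene44264 had 7.31, 7.44 and 5.504 FPKM in PEG 24 h, against 26.8, 26.9 and 24.8 in NaCl 24 h (-1.88 (SE 0.21, adjusted p = 2.21e-08)). The last 3 were higher in PEG than in CK and higher again in NaCl. HCT PH02Gene48286 followed the same order, with 0.852, 1.21 and 1.19 FPKM in PEG 24 h, against 6.68, 5.99 and 5.87 in NaCl 24 h (-2.42 (SE 0.45, adjusted p = 9.33e-05)).

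Other genes stood higher in PEG than in NaCl. C3H PH02Gene03849 had 253, 238 and 247 FPKM in PEG 24 h, against 129, 117 and 124 in NaCl 24 h (1.08 (SE 0.08, adjusted p = 1.97e-11)). CCR PH02Gene04629 had 6.72, 5.87 and 5.49 FPKM in PEG 24 h, against 2.16, 2.295 and 2.84 in NaCl 24 h (1.39 (SE 0.11, adjusted p = 5.69e-11)), and CCR PH02Gene06795 had 34.6, 28.3 and 28.3 FPKM in PEG 24 h, against 16.4, 15.3 and 15.9 in NaCl 24 h (1.02 (SE 0.12, adjusted p = 7.14e-08)). Both CCR genes were below CK in each treatment, less so in PEG. PheCAD8 had 19.98, 20.5 and 20.5 FPKM in PEG 24 h, against 10.02, 10.1 and 8.69 in NaCl 24 h (1.16 (SE 0.09, adjusted p = 3.62e-11)), again between NaCl and CK. F5H PH02Gene21400 did not pass the test between the treatments, with 53.8, 48.6 and 51.7 FPKM in PEG 24 h, against 61.7, 54.5 and 59.5 in NaCl 24 h (-0.11 (SE 0.17, adjusted p = 0.637)). PheCAD13 did not pass it either, with 9.34, 9.76 and 6.92 FPKM in PEG 24 h, against 10.7, 8.28 and 8.99 in NaCl 24 h (-0.03 (SE 0.19, adjusted p = 0.935)).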

How the data were processed

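RNA sequencing of poly-A selected RNA from young leaves was used, with 3 libraries per group at 3 h and 24 h. The authors deposited raw read counts per gene for 59091 genes without normalization, and FPKM values, which they computed per gene and library. HISAT2 and DESeq2 are named in the submitters' processing notes without versions. For the counter, the genome build and the annotation, the sources used here give nothing.

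Counts were fitted with edgeR 4.0.16 in R 4.3.3 (TMM, filterByExpr, quasi-likelihood test, one mean per group). The fit held the 30 libraries of the 10 groups at 3 h and 24 h. The 4 libraries labelled 0 h were left out, as 1 of them is known to lie apart. A gene was called at a Benjamini-Hochberg adjusted p under 0.05 over all genes tested and 2-fold or more. The 2-fold limit is that of the study, and the limit on the adjusted p was added here. SE is approximate, the absolute log2 fold change divided by the root of edgeR's F. With 3 libraries against 3, an exact permutation test of a single value cannot go below p = 0.1, so no such test was run. The script was tested on simulated data.

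Families came from the study's list of lignin genes, with a gene listed under 2 transcripts counted once. The study's text places some of these genes in other families than its list does. Named were all PheCAD genes, the highest member by mean FPKM of each other family with at most 3 rises and 3 falls past the threshold, and at most 2 rises and 2 falls of at least 10 CPM among the unnamed genes. One family of the list is not reported here by name, and its genes stay in the counts over the list. The members and lists were chosen with earlier results of these data known.

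Alternatives were DESeq2 1.42.0 and its size factors, no filter, only the groups compared, all 34 libraries, a replicate block, each library left out in turn, a test against 2-fold, limma 3.58.1 on log2(FPKM + 1) and log2(FPKM + 0.1), and a 2-fold FPKM ratio. Plots were drawn with matplotlib 3.10.9 in Python 3.11.15.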

Additional observations from a re-analysis of the deposited data

Results flagged for a closer look

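The effect of PEG relative to CK differed between 24 h and 3 h in 24 of the genes named by the rule above, by a test of the difference itself (edgeR, adjusted p under 0.05 and at least 2-fold). Genes named after their values were seen are not among them. Values are log2 differences, 24 h minus 3 h. The effect at 24 h was lower for PAL PH02Gene40449 (-5.80), PH02Gene27014 (-2.65) and PH02Gene27012 (-2.19), C4H PH02Gene38832 (-4.94), 4CL PH02Gene42739 (-1.87) and HCT PH02Gene25625 (-3.47). It was also lower for CCoAOMT PH02Gene12695 (-1.71), F5H PH02Gene18881 (-1.17), PH02Gene15790 (-5.10) and PH02Gene34078 (-1.47), CCR PH02Gene28141 (-1.64), PheCAD12 (-2.08) and PheCAD14 (-2.26). A higher effect at 24 h was found for C3H PH02Gene03849 (1.25), CCoAOMT PH02Gene31245 (4.18), F5H PH02Gene38755 (6.86, a fitted value with CK 24 h at 0 counts) and PH02Gene21400 (2.21), CCR PH02Gene03651 (2.32) and PH02Gene28140 (1.47), PheCAD4 (1.79) and PheCAD13 (1.95). Of the genes without a name, PH02Gene07648 (10.78) had a higher effect at 24 h, and PH02Gene45932 (-3.38) and PH02Gene45600 (-7.40) a lower one. Leaving out 1 library moved PH02Gene07648 to 14.84 (without CK 24 h replicate 1), PH02Gene40449 to -10.33 and PH02Gene15790 to -6.05 (each without PEG 24 h replicate 2), PH02Gene38832 to -5.60 and PH02Gene45600 to -8.12 (each without PEG 24 h replicate 1) and PH02Gene38755 to 5.02 (without CK 3 h replicate 1). Smaller moves past 1.5 times were those of PH02Gene40449 to -5.20 (without PEG 24 h replicate 1), PH02Gene15790 to -4.46 (without PEG 3 h replicate 2, with a value close to it without PEG 24 h replicate 3) and PH02Gene38755 to 7.51 (without PEG 3 h replicate 2). Of the 24, PH02Gene27014, PH02Gene28141, PH02Gene34078 and PH02Gene45932 no longer passed the threshold with all 34 libraries in the fit (adjusted p = 0.0624, 0.215, 0.0584 and 0.201).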

How the results depend on the processing

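The total calls of the 4 comparisons, the lignin pathway count and the 24 h calls by direction stayed within 1.5 times of the reported counts under most alternatives, and 7 of these values did not. Calls at 3 h by direction were not among the values compared. There 8334 genes were called lower with library totals alone, in place of 4928. The 7 values that moved were all of PEG 24 h against CK 24 h. For PEG 24 h against CK 24 h, limma on log2(FPKM + 1) called 3643 genes (1344 higher, 2299 lower), limma on log2(FPKM + 0.1) called 1714 higher, and a test against a 2-fold change called 3231 (1438 higher, 1793 lower). The limma fits tested only genes with a mean of at least 1 FPKM, and the pseudocount shrinks the changes of low genes. With 1 library left out the total was 5818 to 5941 genes. The lignin pathway count was 18 to 32 over all alternatives. Of the named genes, the direction turned for CSE PH02Gene34362, which stood at 0.046 without a filter, 0.0061 with only the groups compared and 0.0012 to 0.071 with 1 library left out. PheCAD4 stood at -0.30 to 0.062 with 1 library left out, above 0 without CK 24 h replicate 3. Neither was called in any of them. In all, 1235 values of named genes kept direction and call, 26 lost the call (PH02Gene06795, PH02Gene27012, PH02Gene28140, PH02Gene48286 and PheCAD13 at 24 h, and 4 differences between the times), 7 gained it and 9 turned.

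Same-numbered PEG and CK libraries did not deviate together (correlations of -0.01, 0.00 and -0.03), so the numbers were not taken as pairs. With the replicate number as a block 6259 genes were called (2591 higher, 3668 lower), 9941 at 3 h, 8655 for the difference between the times, 7890 against NaCl and 27 of the lignin pathway. Library totals without TMM factors and a fit without the libraries labelled ABA 24 h, which gave 6408 genes, were added after the data had been seen. Low genes are limited by depth, since 3 counts correspond to 0.0854 to 0.0968 CPM in PEG 24 h and 0.0814 to 0.0836 CPM in CK 24 h.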
